A study of Mus musculus with 2 samples.

Results

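The genes described here encode the proteins that dock, prime and fuse synaptic vesicles at the presynaptic terminal, together with their relatives in other membranes. They were taken by symbol from the GENCODE M21 annotation: Snap25, Snap23, Syn1 to Syn3, Unc13a to Unc13d, Sv2a to Sv2c, and every protein-coding gene named Syt, Stx, Stxbp, Vamp, Cplx or Rims followed by a digit. The rule gave 66 of 21911 protein-coding genes with unique symbols. Accessibility was measured by DNase-seq, in which the enzyme DNase I cuts DNA that is not held by nucleosomes or other proteins. The tissue was left cerebral cortex of B6CASTF1/J mice, an F1 hybrid of C57BL/6J and CAST/EiJ, taken from males at 14 days of age. The series held 1 group of 2 libraries, called biological replicates 1 and 2, with no treatment and no other tissue or age. The label of replicate 1 names 3 males and that of replicate 2 names 1 male, while both carry the same donor identifier, so the SD between libraries (n = 2 throughout) may not be a spread between animals. The files do not separate the parental alleles.

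Vesicle fusion is driven by SNARE proteins, which zip together from the vesicle membrane (VAMPs) and the target membrane (syntaxins and SNAP25-type proteins). Sec1/Munc18 proteins bind syntaxins and control their assembly with other SNAREs. Munc13 proteins (Unc13 genes) and RIM proteins (Rims genes) prime vesicles at the active zone. Complexins clamp and assist the assembled SNAREs, and synaptotagmins sense the calcium that triggers release. Synapsins (Syn genes) and SV2 proteins sit on the vesicle itself. The same gene families also serve traffic between inner membranes of every cell.

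The accessible DNA at the starts of the core neuronal genes is shown by the strongest promoter peaks of those with the highest signal, since these are the sites on which the promoter values rest. Only the part of the peak upstream of the gene's first annotated base is printed, on the gene's own strand and from 5′ to 3′, in the mm10 (GRCm38) build that the files use. Capitals mark bases inside a deposited DNase footprint, a short stretch protected from cutting within an open site, in both libraries.
Vamp1 (chr6:125215281-125215540, plus strand): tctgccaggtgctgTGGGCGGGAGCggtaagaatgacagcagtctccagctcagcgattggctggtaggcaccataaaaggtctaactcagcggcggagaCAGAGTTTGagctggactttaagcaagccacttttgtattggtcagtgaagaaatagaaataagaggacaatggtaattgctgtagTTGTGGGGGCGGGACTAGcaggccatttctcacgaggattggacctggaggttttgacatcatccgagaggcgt
Syt1 (chr10:109010983-109011140, minus strand): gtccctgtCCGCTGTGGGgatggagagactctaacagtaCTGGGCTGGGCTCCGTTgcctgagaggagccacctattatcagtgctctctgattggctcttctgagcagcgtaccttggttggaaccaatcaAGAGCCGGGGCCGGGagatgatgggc
Unc13a (chr8:71671758-71671860, minus strand): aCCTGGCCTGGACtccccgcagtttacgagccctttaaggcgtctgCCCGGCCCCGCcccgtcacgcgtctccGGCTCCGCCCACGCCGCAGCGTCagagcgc
Vamp2 (chr11:69088401-69088489, plus strand): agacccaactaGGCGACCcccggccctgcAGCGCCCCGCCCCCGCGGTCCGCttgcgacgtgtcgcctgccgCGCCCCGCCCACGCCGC
In the printed part, footprints of both libraries covered 38 of 260 bases at Vamp1, 42 of 158 at Syt1, 46 of 103 at Unc13a and 47 of 89 at Vamp2. Vamp1 and Vamp2 encode synaptobrevins 1 and 2, Syt1 the calcium sensor of fast release, and Unc13a the main priming factor Munc13-1. Syn2, also among the highest, is not printed because the part upstream of its first base overlaps an annotated exon.

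A gene was called open when a peak of the library's larger peak list overlapped the window of 1 kb each side of any of its annotated starts. The promoter signal is that of the strongest such peak, in the deposited unit, which per the file notes is scaled for read depth. Of the 66 genes, 62 were open in replicate 1 and 61 in replicate 2, where 68.7% and 68.1% of all protein-coding genes were open. In both libraries 61 were open, or 92.4%, against 66.7% of all protein-coding genes. At each of the 61 the strongest promoter peaks of the 2 libraries overlapped, as they did at 94.1% of all genes open in both. The promoter signal itself was not high. Its median over the 61 was 2.86 in replicate 1 and 3.70 in replicate 2, against 3.62 and 4.04 over all 14609 genes open in both. In both libraries 23 of the 61 lay above those medians of all genes and 32 lay below, where 47.1% of all genes lay above and 47.1% below. In a bulk tissue, fewer cells with an open promoter and less cutting per cell cannot be told apart.

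The libraries held 150726 and 155536 peaks and 380111 and 379156 footprints in replicates 1 and 2. Markers of the tissue were checked by the same promoter rule. In both libraries all 6 markers of excitatory neurons, all 6 of inhibitory neurons and all 6 of astrocytes were open, as were 3 of 6 for oligodendrocytes, 4 of 6 for microglia and 4 of 6 for endothelium. Of 6 genes of other tissues only Actn2 was open in both. Of all protein-coding genes 66.7% were open in both. Median signals of the open markers were 2.00 and 3.33 for excitatory neurons in replicates 1 and 2. They were 1.07 and 0.759 for inhibitory neurons and 0.587 and 0.752 for astrocytes. All of these lay below the 3.62 and 4.04 of all genes open in both. The part of each cell type in the values of the release genes was not tested.

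**Figure D1:**
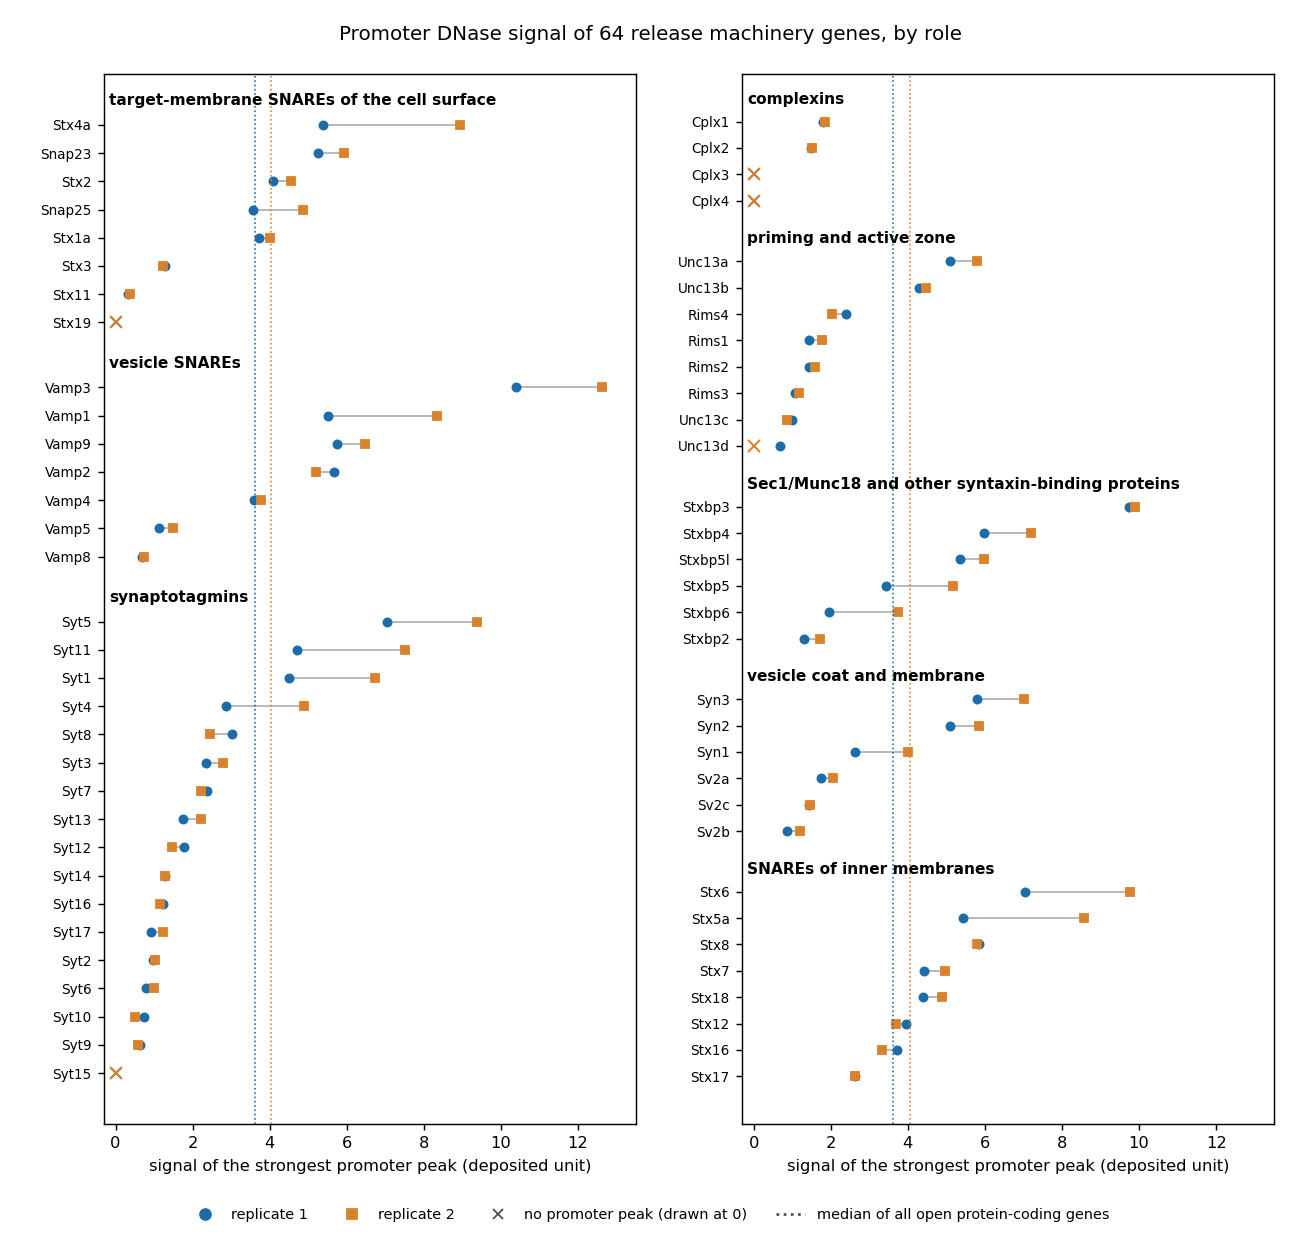
Signal of the strongest promoter peak (x axis, deposited unit) of 64 of the 66 genes, grouped by role, with a circle for replicate 1 and a square for replicate 2 joined by a line; crosses at 0 mark a library without a promoter peak, and dotted lines mark the median of all open protein-coding genes in each library (3.62 and 4.04). Vamp3 stands highest at 10.4 and 12.6, and complexins and most synaptotagmins lie left of the dotted lines.

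The target-membrane SNAREs of the cell surface are the docking side of fusion, and 8 of their 9 genes were open in both libraries. Their median signal was 3.65 in replicate 1 and 4.28 in replicate 2. Snap25, which gives the neuronal SNARE complex a pair of its helices, had 3.58 and 4.87. Stx1a, a neuronal syntaxin, had 3.72 and 3.999. Both lay near the median of all open genes. The highest genes of the group were the widely used Stx4a, a syntaxin of the general cell surface, with 5.39 and 8.94, Snap23, the broadly expressed relative of Snap25, with 5.25 and 5.92, and Stx2, also of the cell surface, with 4.09 and 4.56. All 3 lay above the median of all open genes in both libraries. Stx11, known from granule release by cytotoxic blood cells, was the lowest open gene of all 61, with 0.327 and 0.368, and Stx19 had no promoter peak in either library.

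All 7 vesicle SNARE genes were open, with medians of 5.51 and 5.19 in replicates 1 and 2. Vamp3, or cellubrevin, which serves recycling endosomes in most cells, had the highest promoter signal of all 61 genes, 10.4 and 12.6 (11.5 ± 1.58, SD). Vamp1 followed with 5.51 and 8.34, and Vamp2, the main synaptobrevin of the forebrain, had 5.66 and 5.19. Vamp9, put in no class of site of function, had 5.75 and 6.47. All 4 were above the median of all open genes in both libraries. Vamp8, of endosomes and secretory granules outside neurons, was lowest with 0.677 and 0.731.

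Of the 17 synaptotagmin genes 16 were open in both libraries, yet their medians were only 1.76 and 1.84 in replicates 1 and 2. The 3 highest were Syt5, a calcium-binding member of dense-core vesicles, with 7.05 and 9.39, Syt11, which does not bind calcium, with 4.70 and 7.52, and Syt1 with 4.51 and 6.74. Syt2, the fast sensor of hindbrain synapses and of some interneurons, had 0.976 and 1.02. Syt9, another calcium sensor, had 0.625 and 0.571. The sensors of fast release therefore ranged from above to far below the median of all open genes, and Syt15 had no promoter peak. Among the complexins only Cplx1, with 1.79 and 1.84, and Cplx2, with 1.47 and 1.52, were open. These are the complexins of most brain synapses. Cplx3 and Cplx4, best known from ribbon synapses of the retina, had no promoter peak in either library.

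The priming and active zone genes were open in 7 of 8 cases, with medians of 1.44 and 1.76 in replicates 1 and 2. Unc13a had 5.08 and 5.80 and Unc13b, which encodes Munc13-2, had 4.28 and 4.48. These lay above the median of all open genes in both libraries, whereas the RIM scaffold genes did not. Rims1 had 1.43 and 1.76, Rims2 had 1.44 and 1.58, and Rims4, which encodes a short RIM, had 2.40 and 2.03. Unc13c, known from the cerebellum, was the lowest of those open in both, with 0.995 and 0.866. Unc13d, which primes granules in blood cells, had a promoter peak only in replicate 1, with a signal of 0.677. The deposited intervals of raised cutting rate (false discovery rate below 0.05) covered 112 of the 4912 bp of its promoter windows in replicate 1 and none in replicate 2. They covered no base of the windows of Cplx3, Cplx4, Stx19 and Syt15 in either library.

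Among the 7 open genes of Sec1/Munc18 and other syntaxin-binding proteins the medians were 4.68 and 5.18 in replicates 1 and 2. Stxbp3, or Munc18c, the partner of Stx4 at the general cell surface, had 9.73 and 9.89. Stxbp4 had 5.99 and 7.19, from a peak that also lay at a start of Cox11. Stxbp5l, a tomosyn that inhibits SNARE assembly, had 5.36 and 5.98. All 3 lay above the median of all open genes in both libraries. Stxbp2, the Munc18 of blood and epithelial cells, was lowest with 1.298 and 1.73.

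The 6 vesicle coat and membrane genes were all open, with medians of 2.20 and 3.02 in replicates 1 and 2. Synapsins, which tether vesicles in the reserve pool, were the higher ones: Syn3 had 5.80 and 7.01, Syn2 had 5.10 and 5.84, and Syn1, on the X chromosome, had 2.64 and 3.99. Sv2a, the SV2 protein of nearly all synapses, had 1.76 and 2.06, and Sv2b had 0.867 and 1.21. The SV2 genes were lower than every synapsin in both libraries.

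All 8 genes for SNAREs of inner membranes were open, with medians of 4.40 and 4.93 in replicates 1 and 2. Stx6, of the trans-Golgi network, had 7.05 and 9.75. Stx5a, of traffic between the endoplasmic reticulum and the Golgi, had 5.43 and 8.57, and Stx8, of late endosomes, had 5.84 and 5.80. Both used peaks shared with another coding start, 1700092M07Rik at Stx5a and Cfap52 at Stx8. Even the lowest, Stx17 of autophagosomes, had 2.63 in each library.

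Grouped by where the proteins are best known to act, 18 genes were core neuronal, 13 served general membrane traffic, 9 were mainly known from other tissues and 26 were put in no class. All 18 core neuronal genes and all 13 of general traffic were open in both libraries. So were 5 of the 9 of other tissues and 66.7% of all protein-coding genes. The core neuronal median was 3.11 and 3.996 in replicates 1 and 2, and the general traffic median was 5.25 and 5.80. The difference of median log2 signal, core neuronal minus general traffic, was −0.77 and −0.54 (−0.66 ± 0.17, SD). It stayed below 0 but came to −0.31 when peaks at another coding gene's start were left out, and to −0.42 and −0.38 with 5′ ends only and with all peaks summed. The 5 open genes of other tissues had medians of 1.12 and 1.48, and all 5 lay below the median of all open genes in both libraries. Of the 18 core neuronal genes 7 lay above and 9 below, and of the 13 of general traffic 9 lay above and 2 below.

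**Figure D2:**
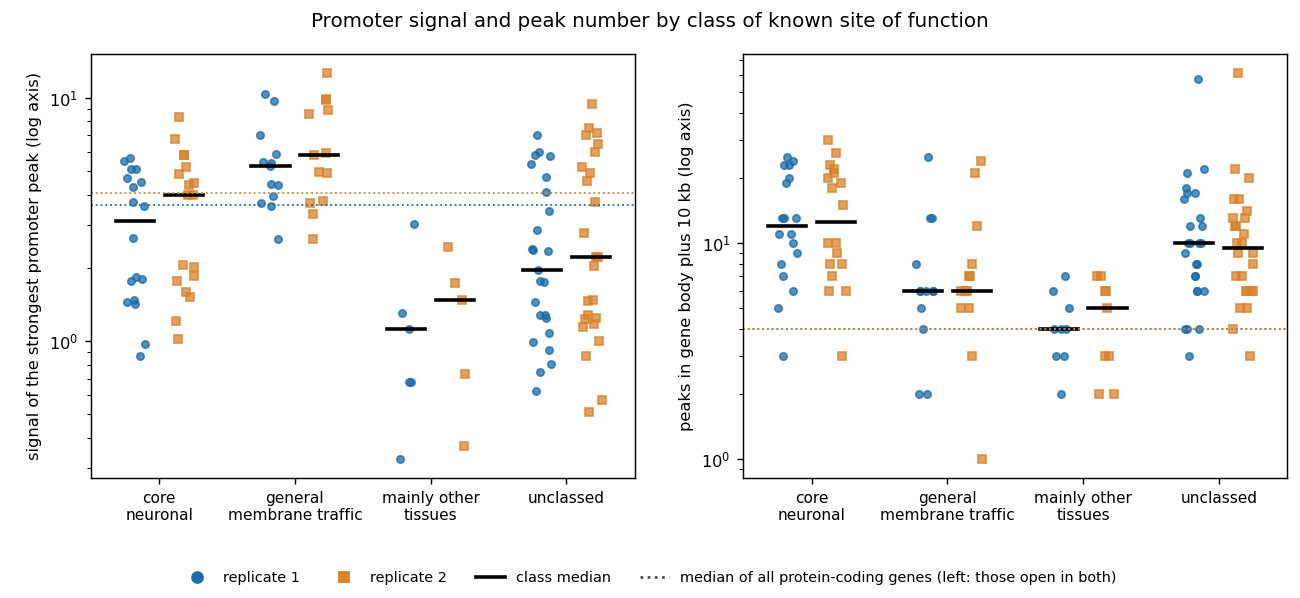
Promoter signal (left) and number of peaks in the gene body plus 10 kb (right), both on log axes, of the members of each class, with circles for replicate 1, squares for replicate 2, bars for class medians and dotted lines for the medians of all protein-coding genes. Core neuronal genes lie lower than general traffic genes in promoter signal and higher in peak number, with medians of 12 and 12.5 peaks against 6 and 6.

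Promoters rich in CG dinucleotides tend to be open in all tissues, so the signal was set beside the number of CG pairs in the 1 kb about the gene's 5′ end. At 7 of the 61 members open in both libraries, Rims2 and Syt2 among them, the strongest peak lay at an inner start instead. For these the signal and the CG number describe different places. The 66 genes had a median of 56 CG pairs and all protein-coding genes had 41. In the upper 2 of 5 equal groups of genes by CG number, 38 members (23 and 15) were all open, where 94.9% and 97% of all genes in those groups were. Their medians were 2.63 and 3.73 in the fourth group, against 4.67 and 5.38 over all open genes there. In the fifth group they were 2.64 and 3.70, against 4.72 and 5.19. Members were higher in the third group, where the 20 open had medians of 3.64 and 4.88, against 2.98 and 3.39. The 3 open members of the second group had 1.76 and 2.06, against 1.44 and 1.60. Of the 61 members, 36 lay below their group's median in both libraries, where 46.7% of all open genes did, and 22 lay above, where 46.6% did. By class, 11 of 18 core neuronal, 3 of 13 general traffic, 4 of 5 other-tissue and 18 of 25 unclassed genes lay below. The median log2 distance from the group's median was −0.27 ± 0.05 for core neuronal genes and 0.56 ± 0.01 for general traffic. It was −1.96 ± 0.14 for the 5 open genes of other tissues and −0.83 ± 0.09 for the unclassed. Each ± is the SD between the 2 libraries and not a spread over genes. Spearman's rho between CG number and mean signal was −0.10 over the 61 members and 0.34 over all 14609 open genes. These points share both libraries and are genes, not replicates.

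**Figure D3:**
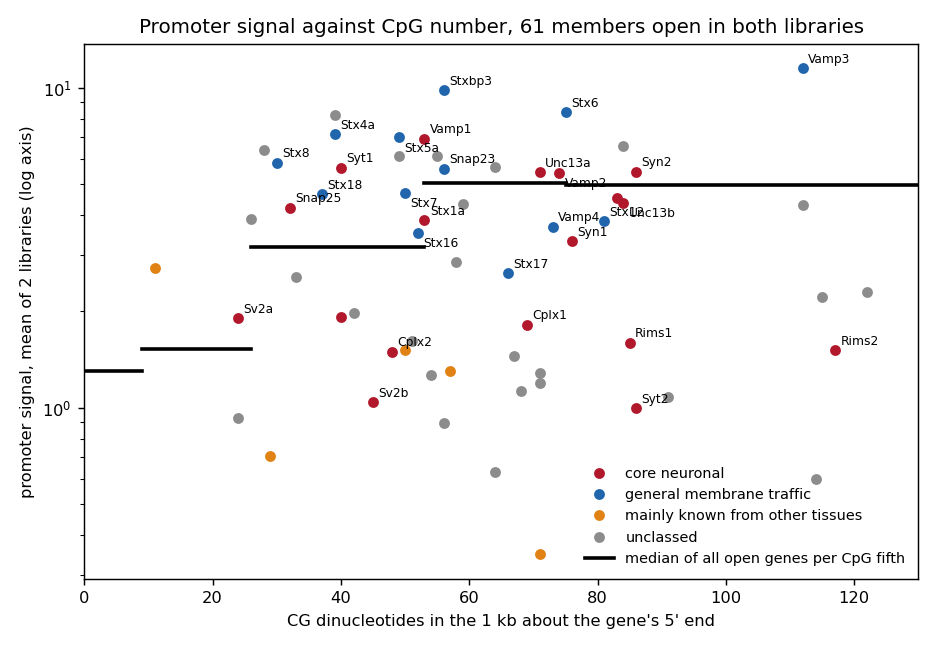
Mean promoter signal of the 2 libraries (y axis, log) against the number of CG dinucleotides in the 1 kb about the 5′ end (x axis) for the 61 members open in both libraries, coloured by class, with bars at the median of all open genes in each of 5 equal groups by CG number. Rims2, Rims1, Syt2 and Cplx1 lie below the bars at 69 to 117 CG pairs, and Vamp3, Stxbp3 and Stx6 lie above. The signal of Rims2 and Syt2 comes from inner starts, away from the 5′ end at which CG pairs were counted.

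The strongest promoter peak was not always at the gene's 5′ end. At 7 of the 61 genes it was centred over 2000 bp downstream, at an inner annotated start, in both libraries, which was so at 10.7% of all open genes. They were Rims2, Syt2, Stxbp6, Stx4a, Vamp5, Syt17 and Syt11. In Rims2 the strongest peak lay 461220 bp into a gene of 486 kb, and in Syt2 it lay 62584 bp into a gene of 116 kb. The remaining core neuronal genes, Rims2 and Syt2 aside, had it within 300 bp of the 5′ end in replicate 1. In both libraries 51 of the 61 had at least 2 promoter peaks, against 64.4% of all open genes, and 41 had at least 2 about the 5′ end alone, against 51.1%. The members had a median of 5 annotated starts and all open genes had 4. A footprint lay in the strongest promoter peak in both libraries at 60 of the 61, which is close to the 97.6% of all open genes. The exception was Stx11, with no footprint there in replicate 1.

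At 13 of the 61 genes a peak inside the gene, away from the promoter windows, was stronger than the strongest promoter peak in both libraries, which was so at 13.2% of all open genes. At Cplx2 that peak had 3.60 and 3.74 about 1.58 and 1.57 kb past the 5′ end, against 1.47 and 1.52 at the promoter. At Rims2 it had 2.99 and 3.00, at 164 kb, against 1.44 and 1.58. At Syt16 it had 4.14 and 3.59, against 1.24 and 1.14, but at 16.3 kb in replicate 1 and 58.2 kb in replicate 2. These 3 genes were chosen after their values were seen. The others were Rims3, Rims4, Stx11, Stx3, Sv2b, Sv2c, Syt13, Syt17, Syt7 and Syt9.

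The gene bodies with 10 kb on each side held a median of 8 peaks per member in each library, against 4 over all protein-coding genes. The members are longer, with a median of 43.02 kb against 17.4 kb, so counts were compared within 5 equal groups of genes by length. In both libraries 43 of 66 lay above their group's median and 12 lay below, where 38.9% of all genes lay above. Of the core neuronal genes 14 of 18 lay above, as did 8 of 13 for general traffic, 4 of 9 for other tissues and 17 of 26 unclassed. The class medians were 12 and 12.5 peaks for core neuronal genes in replicates 1 and 2 and 6 in each for general traffic, a difference of 6.25 ± 0.35 (SD) peaks. Their median lengths were 60.1 kb and 33.6 kb. The difference was 3.5 peaks without flanks. Spearman's rho between length and peak number was 0.69 over the 61 members and 0.54 over all open genes, again across genes that share both libraries.

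Syn3 held the most peaks, 57 in replicate 1 and 61 in replicate 2, over 444 kb that also hold Timp3. Syt1 had 23 and 30, Rims1 had 23 and 26, and Rims2 had 25 and 21. Each of these 3 spans about 500 kb. Sv2b had 24 and 22 peaks in 194 kb, Syt2 had 19 and 23 in 116 kb, and Syn2 had 20 and 20 in 147 kb. Rims1, Rims2, Sv2b and Syt2 thus combined weak promoter peaks with many peaks along the gene. Stx8 had 25 and 24, Syt16 had 22 in each library, and Stxbp6, which encodes the SNARE-binding protein amisyn, had 21 and 16. Vamp2 is only 3.90 kb long but had 13 and 19 peaks, most of them in a flank that holds Per1.

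**Figure D4:**
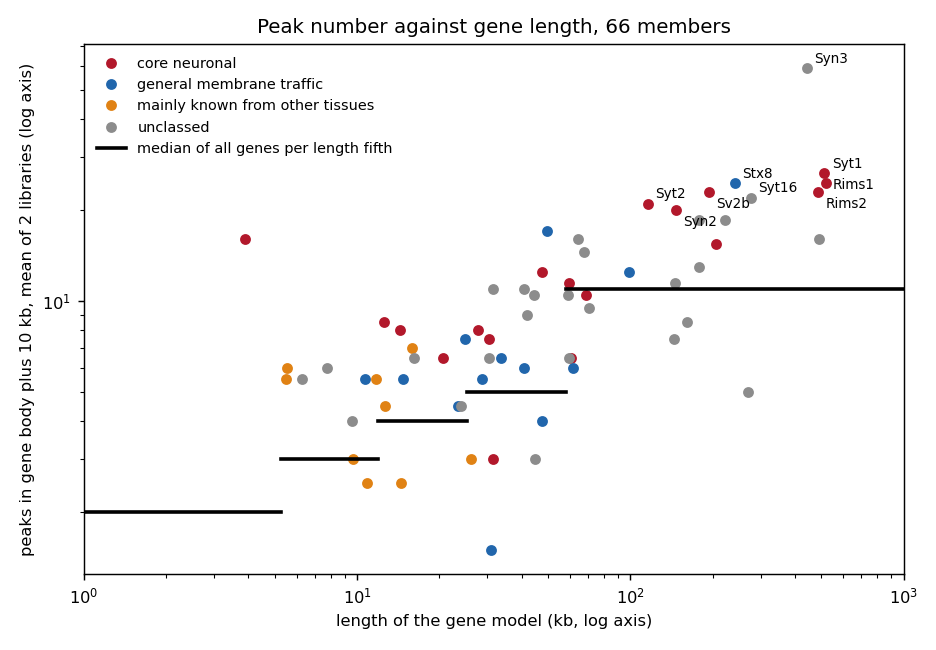
Number of peaks in the gene body plus 10 kb (y axis, mean of the 2 libraries, log) against length of the gene model (x axis, kb, log) for the 66 genes, coloured by class, with bars at the median of all protein-coding genes in each of 5 equal groups by length. Syn3 stands highest, and Vamp2 is the shortest gene and lies far above its bar.

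**Figure D5:**
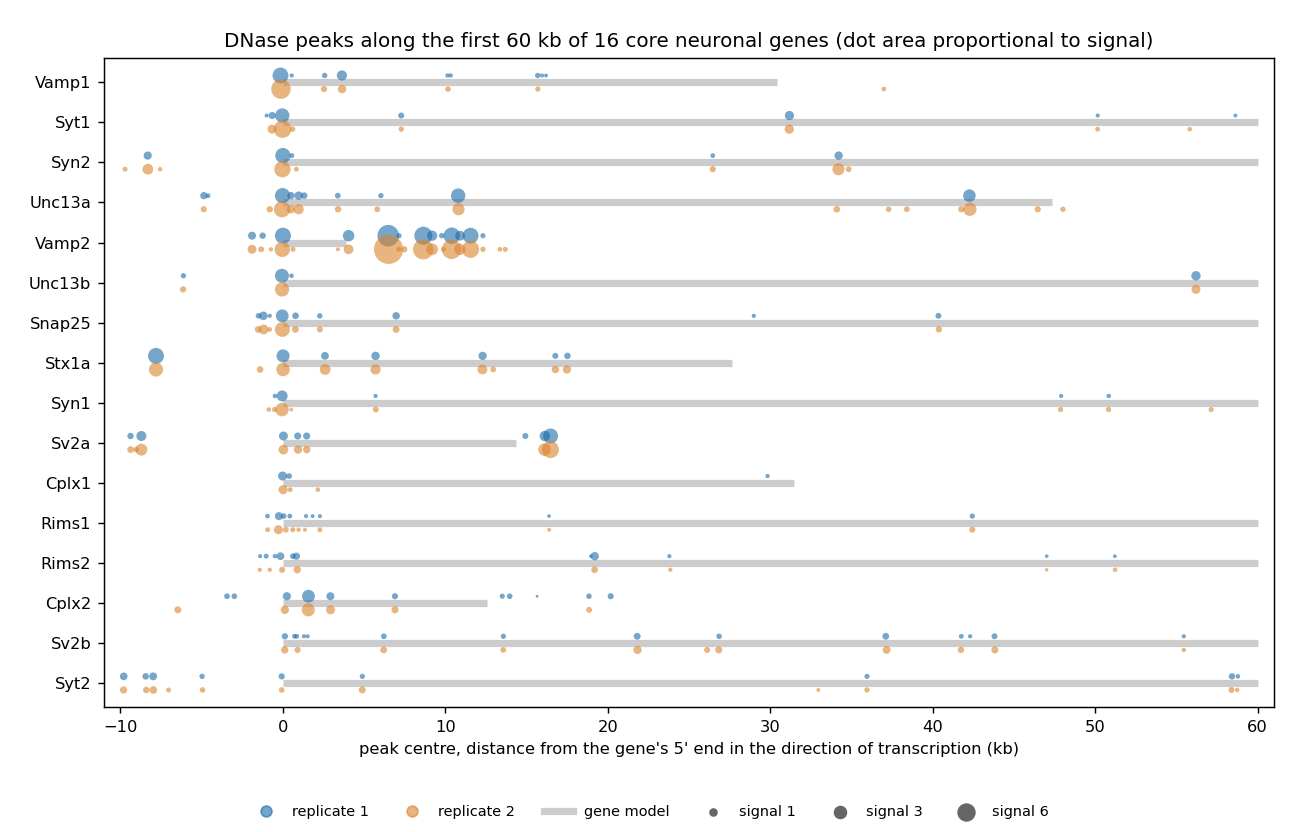
Peaks along the first 60 kb of 16 of the 18 core neuronal genes, as distance of the peak centre from the 5′ end (x axis, kb, in the direction of transcription), with replicate 1 above and replicate 2 below each grey gene model and dot area proportional to signal. Vamp1, Syt1, Syn2, Unc13a and Snap25 have their largest dot at 0, Stx1a has a further large dot 7.80 kb upstream, and the large dots past the end of Vamp2 lie near Per1.

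In the members' regions, 408 of 694 peaks in replicate 1 and 424 of 716 in replicate 2 lay over 2000 bp from any annotated start. These were 58.8% and 59.2%, against 66.7% and 67.9% of all peaks. The members' regions surround genes, whereas all peaks include those far from genes, so these shares are not of like regions. The members' distal peaks had a median signal of 0.564 and 0.679, and all such distal peaks had 0.488 and 0.590. The strongest lay 21.8 kb past the 5′ end of Syt3, in its downstream flank, with 9.05 and 14.5 (11.8 ± 3.85, SD). A signal of 4.598 in replicate 1 and 4.31 in replicate 2 bounds the strongest 1% of distal peaks. The peak 7.80 kb upstream of Stx1a had 5.56 and 4.39, above that bound in both libraries, and higher than the Stx1a promoter peak. Its nearest coding start was that of Abhd11, at 5.71 kb. The peak 10.8 kb inside Unc13a had 4.57 and 3.22. Next came peaks inside Syt16, at 58.2 kb with 3.94 and 3.59 and at 16.3 kb with 4.14 and 3.03, and one past the end of Stxbp5, another tomosyn gene, with 3.88 and 3.35. Those inside Syt11 (2.89 and 3.91), Syt7 (3.48 and 3.23) and Rims4 (2.44 and 4.15) were also among the 10 strongest. The sequences of the Syt3 and Unc13a peaks are given because that at Syt3 was the strongest distal site and that at Unc13a lies inside a core neuronal gene. Capitals mark a match to the CTCF word, which CTCF, a protein that organises chromatin loops, is known to bind.
Syt3 site (chr7:44405761-44406020, plus strand): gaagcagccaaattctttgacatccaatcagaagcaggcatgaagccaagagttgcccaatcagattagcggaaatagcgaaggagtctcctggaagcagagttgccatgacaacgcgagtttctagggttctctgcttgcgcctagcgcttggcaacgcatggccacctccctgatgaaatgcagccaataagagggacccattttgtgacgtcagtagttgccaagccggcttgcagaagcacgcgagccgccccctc
Unc13a site (chr8:71660861-71661060, plus strand): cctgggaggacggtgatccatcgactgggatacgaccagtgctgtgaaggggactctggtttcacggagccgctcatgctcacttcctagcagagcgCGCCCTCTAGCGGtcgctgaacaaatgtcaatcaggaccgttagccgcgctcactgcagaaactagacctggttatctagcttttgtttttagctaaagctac
A CTCF word was found in 4 of the 10 strongest, among them those of Unc13a, Syt16 at 58.2 kb and Syt7. Of the strongest 1% of distal peaks in replicate 1, 35.2% held it, and of all distal peaks 5.97%. The Syt3 peak held no match.

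The share of member peaks that overlapped a peak of the other library was 80.8% in replicate 1 (561 of 694, 95% Wilson interval 77.7 to 83.6%) and 78.1% in replicate 2 (559 of 716, 74.9 to 80.9%). Its mean was 79.5 ± 1.95% (SD) for members and 77.5 ± 1.67% for all peaks. Within each library the share of members was higher, by 2.16 percentage points in replicate 1 and 1.74 in replicate 2. The shares of all peaks, 78.7% and 76.3%, lay inside the members' intervals, so the members were close to all peaks. The intervals cover counting error only.

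Promoter signal was lower in replicate 1 than in replicate 2 at 46 of the 61 genes and higher at 15, close to the 74.7% of all open genes at which it was lower. The median log2 ratio, replicate 1 over replicate 2, was −0.16 for members and −0.22 for all open genes, and its SD over genes was 0.29 and 0.33. The ratios lowest in replicate 1 were those of Stxbp6 (1.97 and 3.73, −0.93), Syt4, a synaptotagmin with little calcium binding (2.86 and 4.89, −0.77), Stx4a (−0.73), Syt11 (−0.68) and Stx5a (−0.66). The highest were those of Syt10 (0.748 and 0.510, 0.55), Syt8 (3.02 and 2.44, 0.31), Syt12 (1.77 and 1.47, 0.27), Rims4 (0.24) and Unc13c (0.20). No core neuronal gene was among these 10, where 18 of the 61 are core neuronal. Vamp1 and Syn1, both at −0.60, came next after Stx5a.

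The RE1 site is bound by REST, a repressor that keeps neuronal genes silent in cells that are not neurons. Sites were searched on both strands as the half-site words CAGCACC and GGACAG with any 2 bases between them and at most 1 mismatch. The members' gene bodies with 10 kb on each side held 40 such sites, 8 of them exact. Of the 40, 4 lay in a peak in both libraries, where 4.46% of 7241 such sites on the 21 chromosomes did. The sites on the chromosomes include those far from genes, and the share within gene regions alone was not computed. The 4 sites are shown, with the searched stretch in capitals, because REST is known to bind near neuronal genes.
Snap25 site (chr2:136714283-136714311, plus strand): gggagctCAGCACCCTGGACAGgagtgct
Snap25 site (chr2:136714333-136714361, plus strand): gacctttCAGCACCGCGGACAGcgatccg
Syn1 site (chrX:20921127-20921155, minus strand): tcggattCAGCACCGCGGTCAGagccttc
Syt6 site (chr3:103573984-103574012, plus strand): gaatcttCAGCACCGCGGACAGggacact
Both Snap25 sites are exact and lie in 1 peak, 844 and 894 bp past the 5′ end, with a signal of 0.976 and 1.00 in replicates 1 and 2. The site at 894 bp had 7 and 8 of its 15 bases in a footprint, and that at 844 bp had none in either library. The Syn1 site, with 1 mismatch, lies 137 bp upstream, in the strongest promoter peak, and had no base in a footprint. The exact Syt6 site lies 1233 bp upstream in a peak of 0.583 and 0.491, with 3 and 6 bases in a footprint. The other 36 sites lay in no peak of either library. A match is a description of the letters and not a measured binding site.

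Shorter words were counted on both strands in the 300 bp about the centre of the strongest promoter peak, as in all open genes. The SP/KLF word GGGCGG was in 47 of 61 members (77.0%) and 65.2% of all open genes. The EGR word was in 8 (13.1%) and 7.05%, among them Vamp2, Unc13a, Syn2 and Cplx1. The cAMP response element TGACGTCA was in 4 (6.56%) and 3.79%: Snap25, Syn1, Vamp3 and Stxbp3. AP-1 (TGANTCA) was in 4 (6.56%) and 4.09%, NRF1 in 3 (4.92%) and 2.31%, and the E-box CAGATG in 6 (9.84%) and 10.8%. The REST words CAGCACC and GGACAGC stood together in Unc13a alone (1.64%) and in 1.07% of all open genes, and no member held the MEF2 word, which 0.301% of all did. Counts this small in 61 windows give shares that 1 or a few genes move.

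A further 38 genes of the active zone and vesicle cycle, none of them members, were all open in both libraries, where 66.7% of all protein-coding genes were. Their median promoter signal was 4.08 and 4.10 in replicates 1 and 2, against 3.62 and 4.04 over all open genes. Their median number of peaks was 9 and 11, against 4 in each library, and their median length 72.4 kb against 17.4 kb. Napa, the SNAP adaptor of SNARE disassembly, had the highest mean signal, with 10.8 and 18.7. Snap29 had 11.9 and 15.2, and Rab3a, the vesicle GTPase bound by RIM proteins, had 6.79 and 11.7. Cadps2, a priming factor of dense-core vesicles, had the lowest mean, with 0.573 and 0.553.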

How the data were processed

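DNase-seq libraries of 2 biological replicates were used. Per the file headers and notes deposited with them, the authors made the peak lists, footprints and cleavage-rate intervals from each library's own mm10 alignments, without pooling replicates. Which aligner and caller they ran is not given in the sources used here. The values of column 7 of the peak lists, called signal, are a read-depth normalised coverage signal as scaled by the authors. The deposited cleavage-rate intervals carry a false discovery rate (q-value) below 0.05. The number of reads behind a value was not given, so single signals are printed without a counting interval. In the lower range the signals were multiples of 1 step, 0.004736 in replicate 1 and 0.006142 in replicate 2. If 1 step stands for 1 read, which is not stated, the counting error was 12.0% and 12.9% at Stx11, the lowest open gene.

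Peaks of the larger list of each library were joined to GENCODE M21 with Python 3.11.15, NumPy 2.4.6, pandas 2.3.3, SciPy 1.17.1 and matplotlib 3.10.9. A gene was open when a peak shared at least 1 bp with the window of 1 kb each side of any start; its signal was that of the strongest such peak. Gene-body peaks had their centre in the gene model or 10 kb on each side. Of 21938 protein-coding records, 27 repeated the symbol of an earlier record and were left out, leaving 21911. CG number and gene length were each cut into 5 equal groups. Median differences were taken per library and then averaged. Printed promoter sequence was read from GRCm38; the RefSeq promoter table held 50 members, and all 65 of its rows for them equalled the sequence read.

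With 1 group there was no test between conditions and no p-value; counts are given beside the same count over all genes. The members, roles, classes and lists were chosen with earlier results of these data known. The values of 2 members are not reported here; counts and medians include them. Named genes were otherwise the 3 highest and the lowest of each role by mean signal, every gene not open in both libraries, all core neuronal genes, the 10 with most gene-body peaks, the 5 with the largest library ratio each way and the 10 strongest distal peaks. The counting was tested on simulated data: all 600 simulated open promoters of 2000 genes and all 200 planted sites with at most 1 mismatch were found, with none called in error. Alternatives were the stricter peak list, windows of 500 and 2500 bp, other starts, flanks of 0 and 50 kb, summed or scaled signals and each library alone.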

Additional observations from a re-analysis of the deposited data

How the results depend on the processing

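Of the 39 alternative values computed, 25 stayed within the spread between libraries or, for counts, within 1.5 times. Medians and differences from a single library lie within the SD of 2 libraries by construction, so those values show no robustness. Only the 2 class differences have a direction. That of log2 signal stayed below 0 in all 7 of its alternatives, and that of gene-body peaks stayed above 0 in all 5. The number of members open in both libraries lay between 58 and 63, from 58 with the stronger 50% of peaks or without peaks at another coding gene's start to 63 with windows of 2500 bp. The median promoter signal, 3.28 as the mean of both libraries, was 2.67 with 5′ ends only, 4.84 with all peaks in the window summed and 0.887 when divided by the library's median, and 2.86 to 3.70 in single libraries. The class difference of median log2 signal, −0.66, was −0.42 with 5′ ends only, −0.38 with summed peaks and −0.31 without peaks at another coding gene's start, an alternative added after the data were seen, and −0.77 to −0.54 in single libraries. The median number of gene-body peaks, 8, was 4.5 without flanks, 18.5 with 50 kb, 5.25 with the stricter list and 4.0 without peaks within 1 kb of a start. The class difference of 6.25 peaks was 3.5 without flanks, 8.75 with 50 kb and 4.5 with the stricter list, and 6.0 to 6.5 in single libraries. The share of member peaks found in both libraries, 79.5%, was 74.3% when at least 50% of the peak had to overlap. The cause of these shifts was not tested, beyond the fewer or additional peaks that each setting counts. No paired analysis was possible because the series has 1 group. In the stricter list Cplx2, a core neuronal gene, and Stx11 were not open in both libraries. Among the stronger 50% of peaks Stx11, Syt9 and Syt10 were not.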
